A study of Mus musculus with 9 samples.

Results

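The core circadian clock genes were examined in ribosome-bound RNA of 3 mouse fat depots. The set was fixed by name as 10 genes: Arntl (which encodes BMAL1), Clock, Npas2, Per1, Per2, Per3, Cry1, Cry2, Dbp and Tef. All 10 were found among the 22527 gene symbols of the table, each on a single line. Cry2 was lower in brown fat than in both white depots, and Arntl was lower in brown than in inguinal fat. Dbp, Tef and Per3 varied together between the libraries of each depot, over a wider range than their depot means.

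The clock is a feedback loop of transcription factors that turns about once a day in most cells. BMAL1 pairs with CLOCK or NPAS2 and switches on genes that carry E-boxes, among them the Per and Cry genes, whose proteins return to the nucleus and inhibit that pair. DBP and TEF are rhythmic factors that bind D-boxes and carry the rhythm to further genes, Per genes included. In adipose tissue the clock is known for daily rhythms in lipid storage and release and in adipokine secretion, and Dbp is among the transcripts with the widest daily swing in many tissues.

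Ribosome-bound RNA was purified with an antibody to GFP from brown (BAT), inguinal white (iWAT, subcutaneous) and epididymal white (eWAT, visceral) fat of C57BL/6 mice aged 8 weeks, 3 libraries per depot and 9 in all. The mice are listed as wild type in every group, no treatment is named, and the labels do not say which cells carried the GFP tag. The labels number the libraries 1 to 3 within each depot, and they do not say whether a number stands for an animal, a pool or a day, so the p-values reflect only how far these libraries spread, which may be technical. The hour of dissection is not given in the sources used here, so no library can be placed on the daily cycle.

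The table gives 1 value per gene and library in FPKM, the fragments per 1000 bases of transcript and per 1000000 mapped reads, so levels can be compared between genes. Read totals were estimated from the steps of 1, 2 and 3 reads among low values. They ran from 11.1 to 21.2 M (1 M being 1000000 reads) over the BAT libraries and from 2.92 to 4.66 M over iWAT, while eWAT held 1 deep library (eWAT 1, 16.0 M) and a shallow pair (4.46 and 4.53 M). The tissue field of BAT 3 names inguinal fat against its title and source. It had the highest level of Ucp1, the uncoupling protein of brown adipocytes (3054 FPKM, against 2434 and 2626 in the other BAT libraries and at most 3.38 in any white library), and it is treated as BAT here. The adipocyte hormone gene Adipoq was at 456 to 2932 FPKM in all 9 libraries.

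RefSeq promoter windows (build GRCm38.p6) were matched for 9 of the 10 members, 14 windows in all, and the 250 bases upstream of each annotated start were searched on both strands. The letters searched were CACGTG (an E-box), CACGTT (a variant of it), TTANGTAA or TTATGNAA (D-boxes) and AGGTCA (the core of the element bound by REV-ERB proteins). These patterns share no match on the members. CACGTG was in Cry1, Per1 and both windows of Tef, as in 6.02% of all 32851 windows. A D-box was in Per3 at 2 places and in Per1, as in 4.27% of all windows. CACGTT was in Cry1 and Cry2 (3.85% of windows) and AGGTCA in Per1 and in 1 of the Clock windows (14.0%). TGACGTCA, the letters of a cAMP response element, was in none of the 14 windows (1.55% of all windows). The windows of Per3 and Tef are shown because these transcripts moved together with Dbp below. The window of Dbp itself held no match, and Per3 and Tef shared no kind of match. Those of Per1 and Cry1 are shown because they carry more than 1 kind of match. Capitals mark every match, read 5′ to 3′ on the strand of the gene, so that CACGTT on the other strand reads AACGTG and AGGTCA reads TGACCT.
Per3 (chr4:151044666-151044915, minus strand): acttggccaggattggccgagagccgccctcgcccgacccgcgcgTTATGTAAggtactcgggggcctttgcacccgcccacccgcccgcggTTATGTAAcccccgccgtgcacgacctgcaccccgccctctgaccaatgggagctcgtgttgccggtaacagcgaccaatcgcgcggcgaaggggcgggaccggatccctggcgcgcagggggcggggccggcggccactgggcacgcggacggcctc
Tef (chr15:81802423-81802672, plus strand): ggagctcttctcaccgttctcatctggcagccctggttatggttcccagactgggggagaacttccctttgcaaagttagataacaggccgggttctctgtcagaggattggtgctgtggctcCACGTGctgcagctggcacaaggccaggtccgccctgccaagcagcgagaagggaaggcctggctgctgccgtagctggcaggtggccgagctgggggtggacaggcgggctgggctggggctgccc
Per1 (chr11:69098699-69098948, plus strand): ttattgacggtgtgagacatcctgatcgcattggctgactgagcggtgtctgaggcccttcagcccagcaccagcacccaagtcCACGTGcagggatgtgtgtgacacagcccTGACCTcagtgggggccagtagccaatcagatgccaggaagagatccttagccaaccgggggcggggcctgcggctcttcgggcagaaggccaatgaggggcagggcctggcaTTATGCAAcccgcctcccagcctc
Cry1 (chr10:85185055-85185304, minus strand): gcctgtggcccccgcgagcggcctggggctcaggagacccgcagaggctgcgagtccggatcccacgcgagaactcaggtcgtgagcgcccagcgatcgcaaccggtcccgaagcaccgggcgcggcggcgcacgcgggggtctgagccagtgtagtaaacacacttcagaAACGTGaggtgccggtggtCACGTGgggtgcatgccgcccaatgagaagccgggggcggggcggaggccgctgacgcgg
In Per3 both matches read TTATGTAA and began 205 and 158 bases upstream of the start. The CACGTG of Tef began 127 bases upstream in the window shown and 138 bases upstream in its other window. A match is a string of letters and shows no binding.

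The members covered a wide range of levels. Tef and Dbp were the most abundant, with medians over the 9 libraries of 15.1 and 12.97 FPKM. Cry2, Arntl and Per1 followed at medians of 6.04, 4.60 and 3.80 FPKM, and Cry1, Clock and Per3 at 2.40, 1.95 and 1.89 FPKM. Npas2 and Per2 stayed under 1 FPKM in all 9 libraries. The 8 other members passed the filter of at least 1 FPKM in at least 3 libraries and were tested, and only 5 members reached 1 FPKM in every library.

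**Figure D1:**
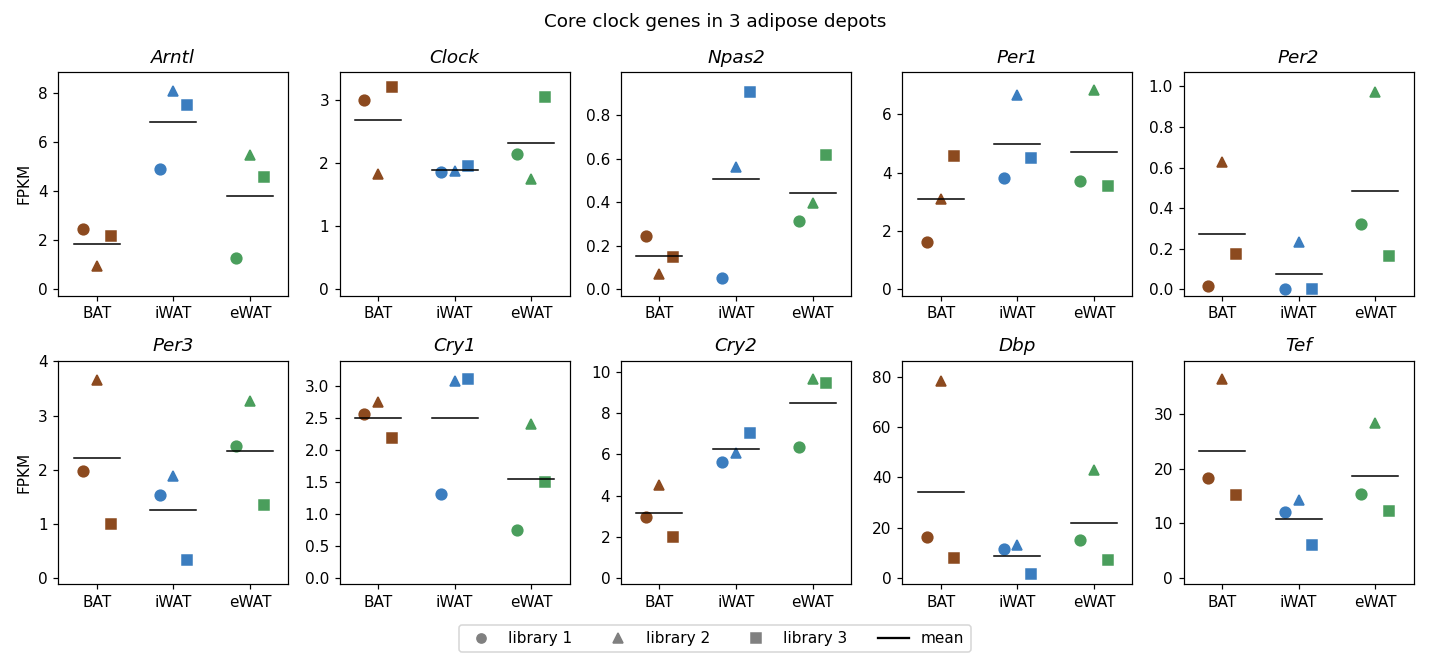
FPKM (linear axis from 0) of the 10 clock genes, by depot and library. Markers give the library number, and the black line is the mean of the depot (n = 3). Dbp in BAT 2 stands at 78.4 FPKM, and the Cry2 values of BAT, 1.98 to 4.53 FPKM, lie below all 6 white values.

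Arntl (chromosome 7, 120350979 to 120457636, plus strand, protein-coding, build mm9 as for all gene positions), the partner that every activating complex of the clock needs, was at 2.49, 0.946 and 2.17 FPKM in BAT 1 to 3. It was at 4.93, 8.10 and 7.53 FPKM in iWAT 1 to 3 and at 1.30, 5.499 and 4.60 FPKM in eWAT 1 to 3. Every iWAT value lay above every BAT value, while eWAT spanned both, with eWAT 1 inside the BAT range. Between the means of 1.87 ± 0.81 FPKM in BAT and 6.85 ± 1.69 in iWAT (SD, n = 3), the log2 difference was -1.47 (SE 0.40, limma adjusted p = 0.0101). Against eWAT (3.80 ± 2.21 FPKM) it was -0.65 (SE 0.40, adjusted p = 0.218), and iWAT against eWAT gave 0.82 (SE 0.40, adjusted p = 0.214). Without eWAT 1, the difference between BAT and eWAT was -1.12 and passed (adjusted p = 0.0206).

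Arntl followed the estimated depth of the libraries as well as the depot. Its 4 lowest values came from the 4 libraries with over 10 M reads (all of BAT, and eWAT 1), and within every depot the deepest library gave the lowest value. The estimated number of reads on Arntl was between 54.7 and 87.3 in all 9 libraries, although their depths ran from 2.92 to 21.2 M. The basal keratin Krt5, a skin marker, was lowest in the same 4 libraries. It was at most 29.3 FPKM there, against 68.3 FPKM or more in each of the 5 others. Krt14, Krt8 and Dsp were lowest in these 4 libraries too. Trp63 and Krt19 were not: in eWAT 1 they were at 1.66 and 1.52 FPKM, against 1.51 and 1.14 in iWAT 1. The summed level of the 9 epithelial and skin markers ranged over 21.5 to 46.8 FPKM for BAT, 152 to 430 for iWAT and 61.4 to 209 for eWAT. Of these markers 6 reached 1 FPKM, Krt18 was at 0 in all BAT and iWAT libraries, and Epcam was at 0 in 7 of 9 libraries. The summed level of 10 skeletal muscle markers was also lowest in BAT. It ran over 60.7 to 150 FPKM for BAT, 1828 to 2516 for iWAT and 227 to 1308 for eWAT. Tnnt3, Myh1, Myh4 and Pvalb were at 0 in at least 1 BAT library. Within iWAT, Acta1 and Pvalb were lowest in iWAT 1, as Arntl was. The other muscle markers were highest there, among them Ckm (94.0 FPKM against 25.3 and 39.5) and Tnnc2 (310 against 69.3 and 101). Depth, these marker signals and depot cannot be told apart for Arntl. In RNA pulled down from many cells at once, fewer cells of a type and less RNA per cell cannot be told apart either.

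**Figure D2:**
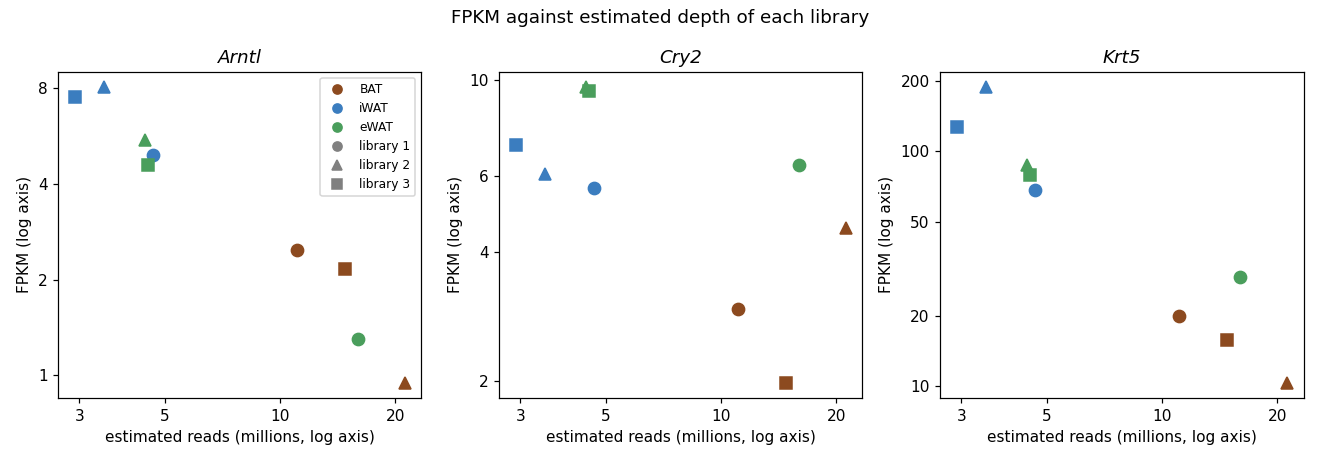
FPKM of Arntl, Cry2 and Krt5 against estimated reads (both axes logarithmic, 1 point per library, colour for depot and marker for library number). Arntl and Krt5 are lowest in the 4 deepest libraries, and the Cry2 values of BAT lie below those of all white libraries, eWAT 1 (6.34 FPKM at 16.0 M reads) among them. Within iWAT and within eWAT the deepest library is also the lowest for Cry2, while within BAT it is the highest.

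Clock and Npas2 encode the alternative partners of BMAL1. Clock (chromosome 5, 76639992 to 76733817) was the steadiest tested member, at 3.001, 1.83 and 3.21 FPKM in BAT, 1.86, 1.88 and 1.95 in iWAT, and 2.15, 1.75 and 3.05 in eWAT. The depots overlapped, and its log2 differences of 0.32 (SE 0.23), 0.15 (SE 0.23) and -0.18 (SE 0.23) did not pass (adjusted p = 0.25, 0.648 and 0.603 for BAT against iWAT, BAT against eWAT and iWAT against eWAT). Npas2 (chromosome 1, 39250576 to 39420079) was at 0.246, 0.0694 and 0.147 FPKM in BAT, 0.0546, 0.561 and 0.908 in iWAT, and 0.313, 0.398 and 0.619 in eWAT. Its values rested on an estimated 1.03 to 20.2 reads, too few for a depot order. Per length, Clock exceeded Npas2 in each library, by a ratio of 2.15 at least and 34.1 at most.

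Cry2 (chromosome 2, 92243803 to 92274200), a cryptochrome that inhibits the activating pair, was the member with the clearest depot difference. It was at 2.94, 4.53 and 1.98 FPKM in BAT 1 to 3, at 5.62, 6.04 and 7.05 FPKM in iWAT 1 to 3, and at 6.34, 9.65 and 9.45 FPKM in eWAT 1 to 3. No BAT library reached any white library, and the white depots overlapped at eWAT 1. Within iWAT and within eWAT the deepest library held the lowest Cry2 value, while within BAT it held the highest. BAT averaged 3.15 ± 1.29 FPKM, iWAT 6.24 ± 0.74 and eWAT 8.48 ± 1.85 (SD, n = 3). The log2 difference was -1.22 (SE 0.27, limma adjusted p = 0.00648) against eWAT and -0.84 (SE 0.27, adjusted p = 0.0226) against iWAT, while iWAT against eWAT gave -0.37 (SE 0.27, adjusted p = 0.35). The call against eWAT held when any single library was left out. The summed level of 6 stromal progenitor markers divided BAT from the white libraries as Cry2 did, at 3.49 to 16.7 FPKM for BAT, 84.4 to 347 for iWAT and 61.5 to 164 for eWAT. Of these markers 4 reached 1 FPKM, and Pi16 was at 0 in iWAT 2. Among the 4, only Dpt divided BAT from all white libraries by itself, and it made up most of the sum in iWAT. Dcn overlapped between BAT and iWAT (2.33 FPKM in BAT 3, 1.74 in iWAT 2). Col1a1 overlapped between BAT and eWAT (1.20 FPKM in BAT 1, 1.07 in eWAT 1). Cd34 overlapped between BAT and iWAT (0.304 FPKM in BAT 1, 0.112 in iWAT 2). The epithelial and muscle sums given for Arntl were also lower in every BAT library than in any white library, and the part of depth and of these markers in the Cry2 difference was not tested. The call against iWAT was lost without BAT 1 (adjusted p = 0.0648), BAT 3 (0.104) or iWAT 3 (0.0699).

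Cry1 (chromosome 10, 84594447 to 84647799), the other cryptochrome, did not pass in any comparison. It was at 2.56, 2.75 and 2.19 FPKM in BAT, 1.31, 3.07 and 3.11 in iWAT, and 0.752, 2.40 and 1.504 in eWAT, and the depots overlapped. The log2 difference was 0.05 (SE 0.30, adjusted p = 0.905) for BAT against iWAT, 0.50 (SE 0.30, adjusted p = 0.211) for BAT against eWAT and 0.46 (SE 0.30, adjusted p = 0.308) for iWAT against eWAT. Within libraries, Cry2 stood at 1.15, 1.65 and 0.905 times Cry1 in BAT, at 4.28, 1.97 and 2.27 times in iWAT and at 8.43, 4.02 and 6.28 times in eWAT. All 3 BAT ratios lay below all white ratios, and iWAT overlapped eWAT at its highest value. An exact permutation test of the log2 ratio gave p = 0.1 (two-sided, 0.15 adjusted over 3 comparisons) for BAT against either white depot, which is the smallest p that 3 against 3 libraries can give. The same exact permutation test gave p = 0.2 for iWAT against eWAT (adjusted 0.2). A ratio within a library does not depend on how the libraries are scaled.

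**Figure D3:**
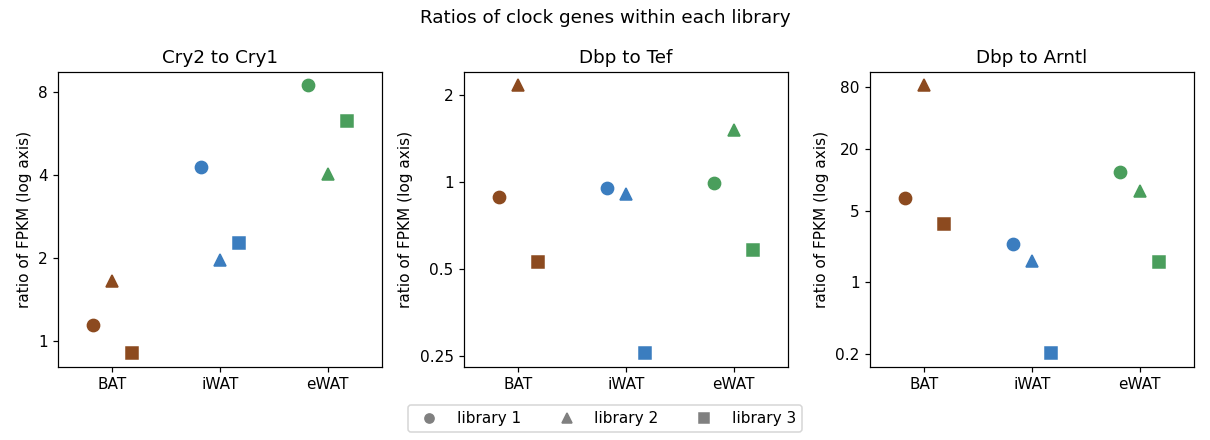
Ratios of FPKM within each library (logarithmic axes) for Cry2 to Cry1, Dbp to Tef and Dbp to Arntl, by depot, with the library number as marker. Cry2 to Cry1 is 0.905 to 1.65 in BAT and 1.97 to 8.43 in the white depots, and Dbp to Arntl runs from 0.204 in iWAT 3 to 82.8 in BAT 2.

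The period genes encode the other inhibitors. Per1 (chromosome 11, 68908719 to 68923462), which acute stimuli also induce, was at 1.64, 3.08 and 4.58 FPKM in BAT, 3.80, 6.67 and 4.50 in iWAT, and 3.70, 6.84 and 3.56 in eWAT. The depots overlapped, with log2 differences of -0.58 (SE 0.33, adjusted p = 0.153) for BAT against iWAT, -0.49 (SE 0.33, adjusted p = 0.267) for BAT against eWAT and 0.09 (SE 0.33, adjusted p = 0.863) for iWAT against eWAT. Per3 (chromosome 4, 150377761 to 150418774), which is less needed for the rhythm itself, was at 1.98, 3.66 and 0.991 FPKM in BAT, 1.53, 1.89 and 0.340 in iWAT, and 2.44, 3.28 and 1.35 in eWAT. Its spread within each depot, 2.43-fold in eWAT to 5.57-fold in iWAT, exceeded the 1.87-fold span of the depot means. Single libraries spread more widely than means do, and the iWAT 3 value rested on an estimated 5.75 reads. No comparison passed for Per3 (limma adjusted p = 0.283, 0.848 and 0.296). Per2 (chromosome 1, 93312561 to 93355907) was at 0.0156, 0.627 and 0.174 FPKM in BAT, 0, 0.234 and 0 in iWAT, and 0.321, 0.972 and 0.163 in eWAT. The 2 values of 0 were in the 2 iWAT libraries other than iWAT 2, and at this depth a low level cannot be told from a missing estimate. In each depot the library numbered 2 held the highest Per2 value, on an estimated 75.0, 4.58 and 24.4 reads in BAT, iWAT and eWAT.

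Dbp (chromosome 7, 52960458 to 52965525) had the widest range of the members, 51.0-fold over the 9 libraries. It was at 16.3, 78.4 and 7.98 FPKM in BAT 1 to 3, at 11.5, 12.97 and 1.54 FPKM in iWAT 1 to 3, and at 15.3, 42.8 and 7.21 FPKM in eWAT 1 to 3. In all 3 depots library 2 was highest and library 3 lowest, and the depots overlapped. In iWAT the difference between libraries 1 and 2 was small, on an estimated 85.2 and 71.5 reads, and library 3 rested on about 7.13 reads. BAT averaged 34.2 ± 38.5 FPKM, iWAT 8.67 ± 6.22 and eWAT 21.8 ± 18.6 (SD, n = 3), so the SD was near or above the mean. The log2 difference was 1.60 (SE 0.89, adjusted p = 0.145) for BAT against iWAT, 0.36 (SE 0.89, adjusted p = 0.778) for BAT against eWAT and -1.24 (SE 0.89, adjusted p = 0.346) for iWAT against eWAT. Without BAT 2 the difference from eWAT turned to -0.53.

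Tef (chromosome 15, 81632851 to 81657291) followed Dbp at a smaller range. It was at 18.3, 36.4 and 15.1 FPKM in BAT 1 to 3, at 12.04, 14.3 and 6.003 FPKM in iWAT 1 to 3, and at 15.4, 28.3 and 12.4 FPKM in eWAT 1 to 3. Library 2 was again highest and library 3 lowest in each depot. All BAT values lay above all iWAT values, with a log2 difference of 1.02 (SE 0.42) that did not pass (adjusted p = 0.058). It passed without iWAT 2 (1.25, adjusted p = 0.0496), without eWAT 2 (1.02, adjusted p = 0.0469) or with array weights, which weight each library by its fit (1.25, adjusted p = 0.0396). BAT against eWAT gave 0.28 (SE 0.42, adjusted p = 0.618) and iWAT against eWAT -0.74 (SE 0.42, adjusted p = 0.26). The ratio of Dbp to Tef was lowest in library 3 of each depot, and it ran from 0.256 in iWAT 3 to 2.16 in BAT 2.

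Among the 8 tested members, Dbp, Tef and Per3 had library 2 highest and library 3 lowest in all 3 depots, a pattern held by 22 of 10374 tested genes (0.212%). Library 2 was highest in all 3 depots for these 3 of the 8 tested members (2.36% of tested genes), and library 3 lowest for the same 3 (3.45% of tested genes). Per2, which was not tested, also had library 2 highest in each depot, in iWAT on an estimated 4.58 reads. Library 2 held more estimated reads than library 3 in BAT (21.2 against 14.8 M) and in iWAT (3.47 against 2.92 M) and about as many in eWAT (4.46 against 4.53 M), and the part of depth in the pattern was not tested. As a description over 9 libraries that share these numbers, the deviations from the depot mean of log2(FPKM + 1) correlated at 0.988 between Dbp and Tef, 0.98 between Dbp and Per3 and 0.954 between Tef and Per3. Those of Clock ran the other way, at -0.833 with Dbp and -0.817 with Tef, and Clock was highest in library 3 of each depot (as in 2.55% of tested genes), by little in iWAT. Those of Arntl were at -0.237 with Dbp. Between libraries 2 and 3, averaged over the depots, the log2 difference was 2.67 for Dbp, 1.16 for Tef and 1.07 for Per3.

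The pattern by library number was noticed in the values and then tested over all genes, with a limma F test for the number in a fit with depot and number (4 residual degrees of freedom). The F test called 0 genes at an adjusted p under 0.05 (0% of 10374) and gave 452 genes an unadjusted p under 0.05. Dbp had an unadjusted p = 0.000128 (limma, adjusted p = 0.364), Per3 0.0023 and Tef 0.00284 (adjusted p = 0.692 for each), so the pattern did not pass the correction. Within depots the SD of log2(FPKM + 1) was 1.41 for Dbp, larger than for 99.6% of tested genes, against a median of 0.35 over all tested genes. It was 0.61 for Tef, 0.55 for Per3 and 0.57 for Arntl, and 0.24 for Clock, larger than for 23.1% of genes.

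**Figure D4:**
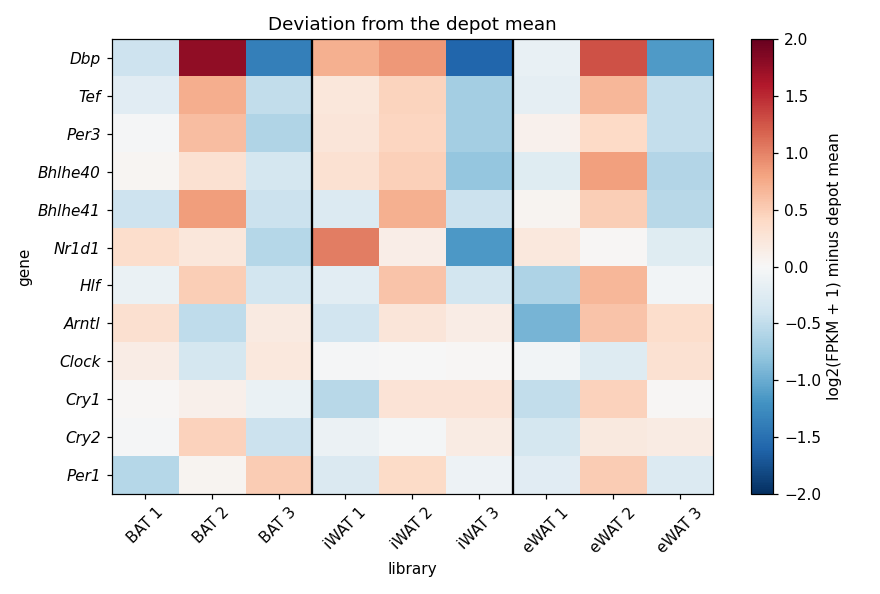
Deviation of log2(FPKM + 1) from the mean of its depot, for 12 clock genes (rows) in the 9 libraries (columns, black lines between depots), on a colour scale from -2 to 2. Dbp, Tef, Per3, Bhlhe40 and Bhlhe41 are above their depot mean in library 2 and below it in library 3 of each depot.

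Counted together, 2 of the 8 tested members differed between BAT and iWAT, both lower in BAT (Arntl and Cry2), in a comparison that called 57.5% of all tested genes, 22.9% in that direction and 34.5% in the other. Between BAT and eWAT, 1 of 8 members was lower in BAT (Cry2), where 33.7% of all genes were called, 13.5% in that direction and 20.2% in the other. Between iWAT and eWAT no member was called (0 of 8 in limma, and 0 at an unadjusted p under 0.05), where 1.74% of all genes were called (0.231% higher and 1.5% lower in iWAT). With both directions counted, the shares of members called were thus below the background in the comparisons with BAT. In the direction lower in BAT they were near it, at 2 and 1 of 8 beside 22.9% and 13.5%. Shares of 8 members are coarse. These comparisons share samples, and each stands on its own values. The groups did not overlap for 3 of 8 members between BAT and iWAT (65.7% of all genes), for 1 between BAT and eWAT (54.6%) and for none between iWAT and eWAT (22.7%). The median log2 difference of the 8 members was 0.18, 0.02 and -0.28 in the 3 comparisons, beside 0.23, -0.02 and -0.18 over all tested genes. Without iWAT 1, the calls between iWAT and eWAT over all genes went from 180 to 3321, and no clock member was among them.

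**Figure D5:**
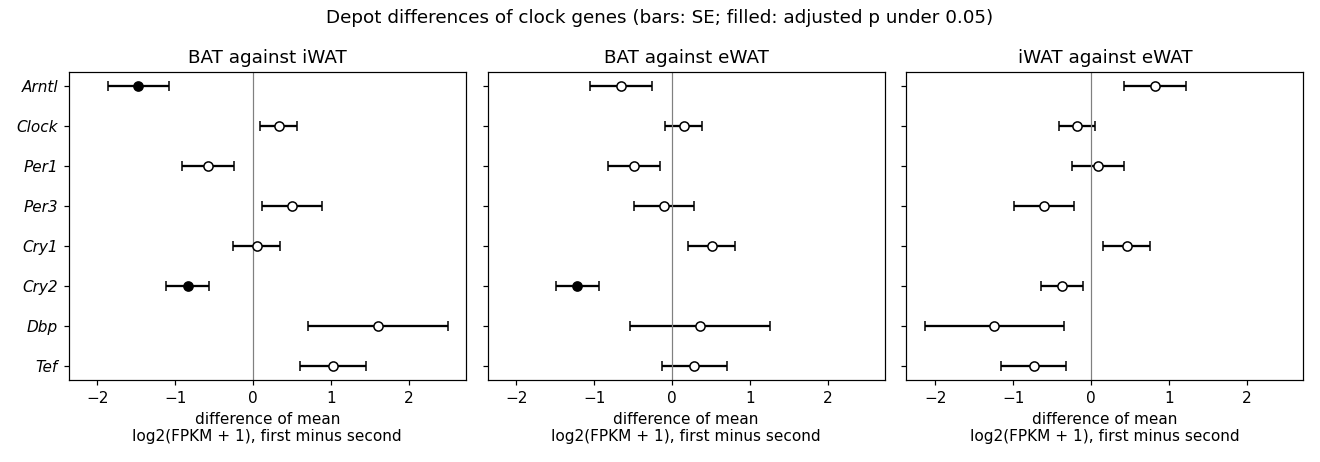
Difference of the mean log2(FPKM + 1) for the 8 tested clock genes in each pair of depots, first depot minus second, with bars of 1 SE and filled points where the limma adjusted p was under 0.05. Filled are Arntl and Cry2 for BAT against iWAT and Cry2 for BAT against eWAT, all to the left of 0.

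Among the other loop genes of the clock, Nfil3 and Hlf were higher in BAT than in either white depot. Nfil3, a repressor that competes with DBP and TEF for D-boxes, reached 3.82, 4.31 and 26.6 FPKM across BAT and 0.494 to 1.98 FPKM across the white libraries (log2 differences of 2.02 from iWAT and 2.22 from eWAT, adjusted p = 0.0127 and 0.0134). Its call against iWAT was lost without iWAT 2 (adjusted p = 0.0514). Hlf, the third relative of DBP and TEF, was at 4.87 to 9.67 FPKM in BAT, 1.45 to 3.67 in iWAT and 0.445 to 2.52 in eWAT (1.26 and 1.77, adjusted p = 0.0162 and 0.00495). Its call against iWAT was lost without BAT 2 or iWAT 3 (highest adjusted p = 0.0688).

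Nr1d1, Nr1d2, Bhlhe40, Bhlhe41 and Gm129 did not pass in any comparison with all 9 libraries. Without iWAT 1, Nr1d1 passed in BAT against iWAT (adjusted p = 0.0399) and in iWAT against eWAT (0.0479), and without iWAT 2, Bhlhe41 passed in BAT against iWAT (0.0238). Nr1d1, which encodes the repressor REV-ERB alpha, had the highest median over the 9 libraries among the members and other loop genes. In BAT 2 and eWAT 2 Dbp was higher. Nr1d1 was at 44.6, 40.6 and 22.9 FPKM in BAT, 48.3, 25.6 and 9.99 in iWAT, and 43.9, 38.7 and 32.0 in eWAT. Library 1 was highest and library 3 lowest in every depot, so it shared the low of Dbp but not its high. Nr1d2, its relative, was at 5.93 to 15.5 FPKM and highest in library 2 of each depot. The repressors Bhlhe40 (3.80 to 14.3 FPKM) and Bhlhe41 (1.95 to 14.2 FPKM) had library 2 highest and library 3 lowest in each depot, like Dbp. Gm129, now named Ciart, was at 3.23 FPKM in BAT 2 and 3.25 in eWAT 2 and at 0 to 1.01 FPKM elsewhere. Rora and Rorb stayed at or under 0.633 FPKM and were not tested. With Dbp, Tef and Per3, Bhlhe40 and Bhlhe41 made up 5 of the 22 genes with that pattern. The opposite pattern, library 3 highest and library 2 lowest in each depot, was held by 47 genes (0.453%). Among them were Cdkn1a, a cell cycle inhibitor, at 69.5 against 8.72 FPKM in BAT, 2.95 against 0.161 in iWAT and 7.79 against 0.508 in eWAT, and Ppp1r3c and Cebpd.

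Of 20 tested kinases, ubiquitin ligases and cofactors of the clock, 2 were higher and 7 lower in BAT than in iWAT, and 2 were higher and 2 lower than in eWAT (median log2 differences of -0.53 and -0.25), where 57.5% and 33.7% of all tested genes were called. The acetyltransferase Crebbp was at 0.941 to 1.89 FPKM in BAT, 5.21 to 15.6 in iWAT and 2.25 to 7.55 in eWAT, with log2 differences of -2.30 (adjusted p = 0.00192) and -1.37 (adjusted p = 0.0361). The corepressor Ncor1 was at 4.17 to 5.96 FPKM in BAT and 11.3 to 26.6 in iWAT (-1.62, adjusted p = 0.00466). As for Arntl, eWAT 1 held the lowest eWAT value of both, at 2.25 and 6.06 FPKM. The protease Usp2, itself an output of the clock, was at 5.91 to 14.8 FPKM in BAT, 1.85 to 4.80 in iWAT and 2.24 to 5.92 in eWAT (1.59 and 1.40, adjusted p = 0.00898 and 0.0259). Against eWAT, Usp2 lost its call without BAT 2, BAT 3, eWAT 1 or eWAT 3 (highest adjusted p = 0.105), and Crebbp without BAT 1, 2 or 3 or eWAT 2 or 3 (highest 0.13).

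Of 9 tested outputs with a daily rhythm in many tissues, 4 were higher and 2 lower in BAT in each comparison with a white depot (medians of 0.22 and -0.06), beside 57.5% of all tested genes called against iWAT and 33.7% against eWAT. Cdkn1a differed by 3.33 from iWAT (adjusted p = 0.0056) and by 2.65 from eWAT (adjusted p = 0.0264), a call lost against eWAT without BAT 1, BAT 3 or eWAT 2 (highest adjusted p = 0.101). Fkbp5, a chaperone induced by glucocorticoids, was at 0.623 to 0.922 FPKM in BAT, 3.06 to 9.20 in iWAT and 12.3 to 25.8 in eWAT (-1.98 and -3.50, adjusted p = 0.00149 and 6.23e-05). Stimuli other than the clock also act on Per1. Of 10 tested immediate early genes, 3 were higher and 1 lower in BAT than in iWAT, and 3 were higher than in eWAT, led by Nr4a1 (111 to 168 FPKM in BAT, 2.03 to 26.2 in the white libraries) and Ier2 (14.0 to 49.1 against 3.80 to 8.62 FPKM). The medians of that list were 0.56 and 1.24, and its counts stand beside the same shares of 57.5% and 33.7%. Of 10 tested glucocorticoid-responsive genes, 2 were higher in BAT in each comparison with a white depot, and 4 were lower than in iWAT and 5 than in eWAT (medians of -0.69 and -1.16), beside the same 57.5% and 33.7%. They included Fkbp5 and, in the other direction, the kinase Pdk4 (450 to 538 FPKM in BAT, 2.05 to 13.9 in the white libraries). No gene of these 5 lists was called between iWAT and eWAT, although Crebbp (lowest adjusted p = 0.0306), Fkbp5 (0.00798) and Nr4a1 (0.0309) passed there without iWAT 1. With the replicate number as a block, which pairs these 2 depots, Tsc22d3 (adjusted p = 0.0278) and Fkbp5 (adjusted p = 0.0478) were called between iWAT and eWAT.

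Among tested genes with a mean of at least 5 FPKM, those closest to Dbp over the 9 libraries, by Pearson correlation of log2(FPKM + 1), were Tef (0.976), the sialyltransferase St3gal4 (0.915), the fatty acid transporter Slc27a1 (0.901) and Bhlhe41 (0.894). St3gal4 was highest in library 2 and lowest in library 3 of BAT and of eWAT, at 13.7 and 4.57 FPKM and at 17.5 and 5.64 FPKM. Closest to Arntl were Ogt (0.991), Prmt2 (0.99), Papolg (0.989) and Vcpip1 (0.988), each lower in the 4 libraries above 10 M reads than in any other. Ogt, the enzyme that attaches N-acetylglucosamine to proteins, was at 9.65 to 20.9 FPKM in those 4 libraries and at 31.9 to 75.0 FPKM in the 5 others. Closest to Per1 were Fip1l1 (0.902), Polr2h (0.829), Dpagt1 (0.828) and Rap1a (0.812). Chosen as the highest of 5491 or 5492 candidates and read off 9 libraries that differ in depth, these values are descriptions.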

How the data were processed

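Ribosome-bound RNA from 3 libraries each of BAT, iWAT and eWAT was measured. Per the labels' protocols, libraries for single-end reads were made from anti-GFP ribosome pull-downs after removal of ribosomal RNA. Per the submitters' processing notes, TopHat and Cufflinks were used on build mm9, and their versions, the annotation and the strand setting are not given in the sources used here. The values deposited by the authors were read as FPKM. The header names no unit, and Cufflinks, the fractional values and the unequal column sums are the grounds.

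Among the 22996 lines, 259 symbols occur more than once, and the most abundant line stood for each. The pseudocount was 1 FPKM, and the 10374 genes that reached 1 FPKM in 3 or more libraries were analysed as log2(FPKM + 1), so that fold changes of low genes are understated. One limma 3.58.1 fit (R 4.3.3, intensity trend, 6 residual degrees of freedom) held all 9 libraries and 3 depot means. Calls were made at a Benjamini-Hochberg adjusted p under 0.05 over all tested genes, and the procedure was tested on simulated data. Depth was estimated from the low values of single-transcript genes of at least 1000 bases in GENCODE vM1 (the same assembly), with a length offset of 200 bases. Between 44.3% and 63.7% of the values used lay within 0.15 of a whole read, and other offsets moved the estimates to 20.1 to 22.1 M for BAT 2 and 2.77 to 3.04 M for iWAT 3. Reads per gene use the longest annotated transcript and are approximate.

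The members, lists and tests were chosen with earlier results of these data known. Named genes were all members and other loop genes, up to 4 called genes of each further list with the largest differences, and the 4 genes most like Arntl, Per1 and Dbp. Some items of the lists are not reported here. The F test for the library number was added after the data were seen. Deviations from the depot mean correlated at 0.634, 0.534 and 0.165 between same-numbered iWAT and eWAT libraries. By the rule that each exceed 0.1 these depots counted as paired, a pairing read from the values alone. The main fit and the permutation tests took no account of it. Among the depot comparisons, only the replicate block did. Some different-numbered libraries correlated above 0.165 too, at 0.228 for iWAT 2 with eWAT 3. BAT 2 reached 0.335 with iWAT 1 and 0.374 with eWAT 1, each the deepest library of its depot. The part of depth in these correlations was not tested. The same-numbered correlations were -0.324, -0.225 and 0.121 between BAT and iWAT, and -0.388, -0.202 and 0.103 between BAT and eWAT, which are not paired. Alternatives were another pseudocount, other filters, scalings and weights, depots fitted alone, summed lines, the replicate number as a block and each library left out.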

Additional observations from a re-analysis of the deposited data

How the results depend on the processing

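Over 417 recomputed differences of the 8 tested members, 394 kept direction and side of the threshold, 7 newly passed, 3 were lost and 13 changed sign, each of the last from a difference that was not called. Arntl in BAT against iWAT stayed called in all 17 alternatives that tested it (adjusted p = 0.00197 to 0.0467) and Cry2 in BAT against eWAT in all 18 (0.00037 to 0.0358). Members called in BAT against iWAT numbered 2, with 1 at a mean of at least 5 FPKM, where only 3 members were tested, 3 with array weights (Tef at 1.25, adjusted p = 0.0396) and 1 to 3 when a library was left out. With the replicate block they numbered 4, since Dbp (1.60, adjusted p = 0.00513) and Tef (1.02, adjusted p = 0.00605) were also called (as was Bhlhe41, 0.00487), and 6080 of all genes were called against 5961. BAT and iWAT share only a number by the check of pairing, so this is a hint from the data. The replicate block changed no other call of a member, iWAT against eWAT included, where it gave 221 calls over all genes. In BAT against eWAT the members called numbered 1, with 2 under array weights (Arntl at -0.91, adjusted p = 0.0119) and 1 to 2 when a library was left out.

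Over all genes, BAT against iWAT gave 3783 calls at a mean of at least 5 FPKM, with fewer genes tested, and BAT against eWAT gave 2244 there and 6625 with array weights. For iWAT against eWAT, 180 calls became 90 with a pseudocount of 0.1, 93 without a filter, 79 at a mean of at least 5 FPKM, 113 with median-ratio scaling, 28 with the 2 depots alone, 1970 with array weights and 50 to 3321 when a library was left out. The cause of these shifts was not tested. There, 24 genes were higher and 156 lower in iWAT, against 32 and 81 with median-ratio scaling and 42 and 99 with quantile normalization. Median-ratio scaling moved the median of all genes in BAT against iWAT from 0.23 to 0.04 and removed that of iWAT against eWAT (-0.18). Signs changed for Cry1 in BAT against iWAT with median-ratio scaling (-0.14), quantile normalization (-0.017), array weights (-0.16) and when a library was left out (-0.23 to 0.19). When a library was left out they also changed for Per1 in iWAT against eWAT (-0.10 to 0.34) and in BAT against eWAT for Per3 (-0.42 to 0.19), Tef (-0.075 to 0.61) and Dbp (-0.53 to 1.04). Precision is limited most in iWAT, where Per2 rests on 0 to 4.58 estimated reads and Npas2 on 1.03 to 10.7. In library 3 of iWAT, Dbp rests on 7.13 and Per3 on 5.75.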
